A study of Mus musculus with 17 samples.

Results

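The 50 genes described here encode proteins that take a cell through mitosis and cytokinesis. They are the kinases and cyclins of entry into mitosis, the spindle checkpoint, the separation of sister chromatids, the chromosomal passenger complex, the kinetochore, the kinesins, the spindle assembly factors, the proteins that cut the cell apart and the proteins that give mitotic chromosomes their structure. The genes were chosen by name for these functions, and earlier results of these data were known when they were chosen. All 50 were found among the 41388 gene IDs of each count file, and all 50 were among the 13060 genes that passed the filter on low counts.

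Counts of sequencing reads per gene came from 17 RNA sequencing libraries of microglia, the resident macrophages of the brain, sorted from C57BL/6 mice as CD45dim CD11b+ cells that did or did not carry CD11c, an integrin subunit. Each library was a pool of 10 to 15 mice. Neonatal mice, 4 to 6 days old, gave 4 libraries of CD11c+ cells (13 to 16, as numbered in the labels) and 4 of CD11c- cells (17 to 20). Female mice with experimental autoimmune encephalomyelitis (EAE), an inflammation of the central nervous system that follows immunization against myelin, gave 3 libraries of CD11c+ cells (1 to 3) and 3 of CD11c- cells (4 to 6). They were immunized at 7 to 10 weeks of age with the MOG peptide 35 to 55 in adjuvant with H37Ra mycobacteria, received pertussis toxin, and were taken at disease grades 3 to 5. Untreated adult mice of 8 to 12 weeks gave 3 libraries (21 to 23), which the titles call unmanipulated total microglia while another label field calls them CD11c negative. The labels name no transgene or deletion for any group. The study gives its neonatal mice as of mixed sex, so age, sex and disease differ together between the neonatal and EAE groups. The pools hide differences between single mice. The study describes pools from 4 sorts of neonatal and adult cells and from 5 EAE immunizations, without saying which libraries shared a sort.

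A dividing cell builds most mitotic proteins anew in each cycle. Their genes are transcribed mainly in G2 and M phase, and in resting cells a repressor complex called DREAM holds many of them silent. During the M phase the anaphase-promoting complex marks the cyclins and securin for destruction, so that chromosomes separate and the cell leaves mitosis. Microglia renew themselves by division of resident cells, often after birth and after injury and rarely in the healthy adult brain. In sorted cells measured in bulk, fewer dividing cells and less mitotic RNA in each cell cannot be told apart.

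DREAM and the activators of mitotic genes act through short promoter elements, the hexamer TTTGAA or TTCGAA (known as CHR) and the CCAAT box. Both were searched on both strands in the window from 250 bases before to 50 bases after each RefSeq start (GRCm38.p6), which the reference table holds for 41 of the 50 genes. TTCGAA reads alike on both strands. None of these motifs contains another, although a hexamer and CCAAT can share an end base. Of the 41 windows, 32 (78%) hold a hexamer against 19.4% of the 27025 windows of all genes, 30 (73.2%) hold CCAAT against 37.9%, and 28 (68.3%) hold both against 7.7%. The hexamers lie near the start: 29 of 41 members (70.7%) have one between 50 bases before and the end of the window, against 5.29% of all windows. The windows of Birc5, Mad2l1, Melk, Ncaph, Nuf2, Nusap1 and Pttg1 hold none of these letters. Those of Pttg1, Kif2c, Cdca8 and Kif4 lie wholly inside the genes as GENCODE M21 annotates them. For these genes the bases before the annotated gene start were not searched. The stretches printed here are those of 5 members that rose together and hold both motifs, and of Espl1, Ncaph and Pttg1, whose levels departed from the rest. Each stretch runs from 150 bases before the start to 5 after it, on the gene's own strand, with the motifs in capitals (ATTGG and TTCAAA are CCAAT and TTTGAA read from the other strand).
Cdk1 (chr10:69352907-69353062, minus strand): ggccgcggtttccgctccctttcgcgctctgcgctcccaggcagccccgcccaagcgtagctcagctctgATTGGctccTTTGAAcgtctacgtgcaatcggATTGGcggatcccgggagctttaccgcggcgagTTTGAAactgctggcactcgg
Cdc20 (chr4:118437338-118437493, minus strand): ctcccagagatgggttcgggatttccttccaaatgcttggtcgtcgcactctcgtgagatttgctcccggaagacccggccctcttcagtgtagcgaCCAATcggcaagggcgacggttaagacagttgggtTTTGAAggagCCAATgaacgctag
Kif11 (chr19:37376232-37376387, plus strand): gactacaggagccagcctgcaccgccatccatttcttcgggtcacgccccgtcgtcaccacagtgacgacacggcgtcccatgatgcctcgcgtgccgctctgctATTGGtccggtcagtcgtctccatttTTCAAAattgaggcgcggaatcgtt
Prc1 (chr7:80294301-80294456, plus strand): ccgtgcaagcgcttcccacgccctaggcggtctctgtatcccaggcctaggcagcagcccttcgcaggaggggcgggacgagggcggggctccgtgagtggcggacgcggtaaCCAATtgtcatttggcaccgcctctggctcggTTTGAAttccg
Top2a (chr11:99024184-99024339, minus strand): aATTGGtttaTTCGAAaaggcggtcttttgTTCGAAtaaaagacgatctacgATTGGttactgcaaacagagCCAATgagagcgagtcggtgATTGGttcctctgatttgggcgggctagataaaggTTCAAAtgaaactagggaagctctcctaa
Espl1 (chr15:102296143-102296298, plus strand): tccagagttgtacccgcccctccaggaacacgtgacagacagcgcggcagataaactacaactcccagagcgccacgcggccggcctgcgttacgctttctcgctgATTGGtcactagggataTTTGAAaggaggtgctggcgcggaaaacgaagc
Ncaph (chr2:127133949-127134104, minus strand): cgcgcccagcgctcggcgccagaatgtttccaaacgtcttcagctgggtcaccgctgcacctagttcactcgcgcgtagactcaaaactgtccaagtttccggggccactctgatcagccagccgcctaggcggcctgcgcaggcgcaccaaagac
Pttg1 (chr11:43425976-43426131, minus strand): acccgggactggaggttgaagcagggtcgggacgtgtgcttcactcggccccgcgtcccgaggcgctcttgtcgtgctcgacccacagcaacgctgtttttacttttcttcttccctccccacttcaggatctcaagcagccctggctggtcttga
A match of letters in such a window is a description and not a measured binding site. In Cdc20 and Prc1 a hexamer follows CCAAT within a short distance just before the start, and Top2a has 4 CCAAT and 3 hexamers in the stretch shown. Espl1 also holds both motifs, and the stretches of Ncaph and Pttg1 hold neither. The other members whose windows hold no motif, Birc5, Mad2l1, Melk, Nuf2 and Nusap1, rose in all 4 comparisons with adult cells. As the Pttg1 stretch lies inside the annotated gene, it does not show whether bases before the gene start hold a motif.

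Counted reads per library ranged from 5115489 to 10436066, and a count of 3, taken as the floor of detection, was 0.2875 to 0.5865 CPM, the counts per 1000000 counts of a library. Levels are CPM after scaling of library sizes by TMM, listed within a group in the order of library numbers, and differences are log2 fold changes, tested by quasi-likelihood in edgeR with all 5 groups fitted together. A gene rose or fell where the Benjamini-Hochberg adjusted p over all 13060 genes was 0.01 or less. All 8 markers of microglia were read in every group, with summed levels of 22010 to 40620 CPM. Library 17 (5.103% mitochondrial counts against 1.056 to 1.131% in the rest of its group) and library 1 (2.227% against 1.148 and 1.423%) stood apart from their groups, and library 16 had been set apart in an earlier analysis of these counts. Counts of members without these 3 libraries are given beside the comparisons where they differ.

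Nearly all of the 50 genes were low in adult microglia and high in each of the other groups, apart from Pttg1 (securin), which was not raised, and Espl1 and Ncaph, which were already high in adult cells. Summed over all members, the level was 306, 299.3 and 301.8 CPM in the adult libraries and 5753, 3536, 3555 and 4030 CPM in neonatal CD11c- libraries 17 to 20. It was 2771, 3028, 3316 and 3068 CPM in neonatal CD11c+ libraries 13 to 16. It reached 1601, 2677 and 2018 CPM in EAE CD11c- libraries 4 to 6 and 1942, 2302 and 3093 CPM in EAE CD11c+ libraries 1 to 3. No library of the other groups came near the adult range, and the mean sums were 13.95, 10.07, 6.941 and 8.088 times the adult mean in the order given. The neonatal CD11c- mean of 4218 CPM was 3707 CPM without library 17, the highest of all. The EAE groups overlapped with each other, and EAE library 3 overlapped with the neonatal CD11c+ libraries. For 41 of 50 members the group means had a single order, from neonatal CD11c- over neonatal CD11c+, EAE CD11c+ and EAE CD11c- down to adult microglia.

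**Figure D1:**
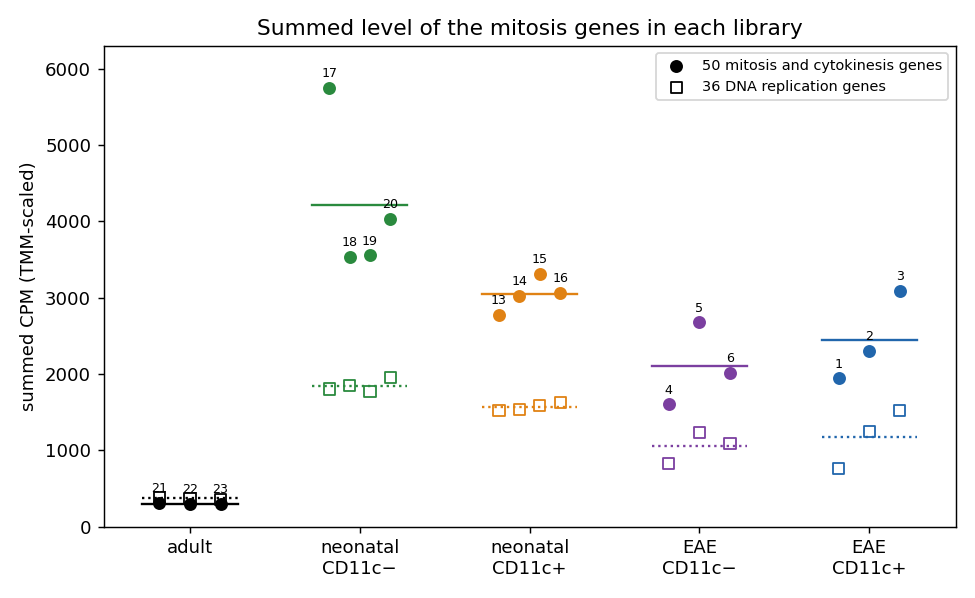
Summed TMM-scaled CPM (vertical axis, from 0) of the 50 mitosis and cytokinesis genes (filled circles, with the library number) and of 36 DNA replication genes (open squares) in each of the 17 libraries, by group, with solid and dotted lines at the group means. The adult libraries lie between 299.3 and 306 CPM for the mitosis genes and every other library lies at 1601 CPM or above, library 17 being the highest at 5753.

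Against adult microglia, 49 of 50 members rose and 1 fell in neonatal CD11c- cells, where 13.2% of all tested genes rose and 12.1% fell. The same numbers, 49 and 1, held in neonatal CD11c+ cells against 18% and 15.3% of all genes. In EAE CD11c- cells 47 rose and 0 fell (11% and 4.72% of all genes), and in EAE CD11c+ cells 48 rose and 0 fell (15.1% and 11.1%). The median log2 fold change of the members was 4.58, 4.25, 3.73 and 3.98 in these comparisons, and the median of all genes was -0.01, -0.03, -0.01 and -0.01. All 4 comparisons use the same adult libraries, so they are not independent of each other. The member that fell was Pttg1, and the members that did not pass in every comparison were Pttg1, Espl1 and Ncaph. At an unadjusted p under 0.05, 0 members were lower in either EAE group by the same test, and DESeq2's Wald test called 0 lower as well. Without libraries 1, 16 and 17, 49 members rose in each of the 4 comparisons.

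**Figure D2:**
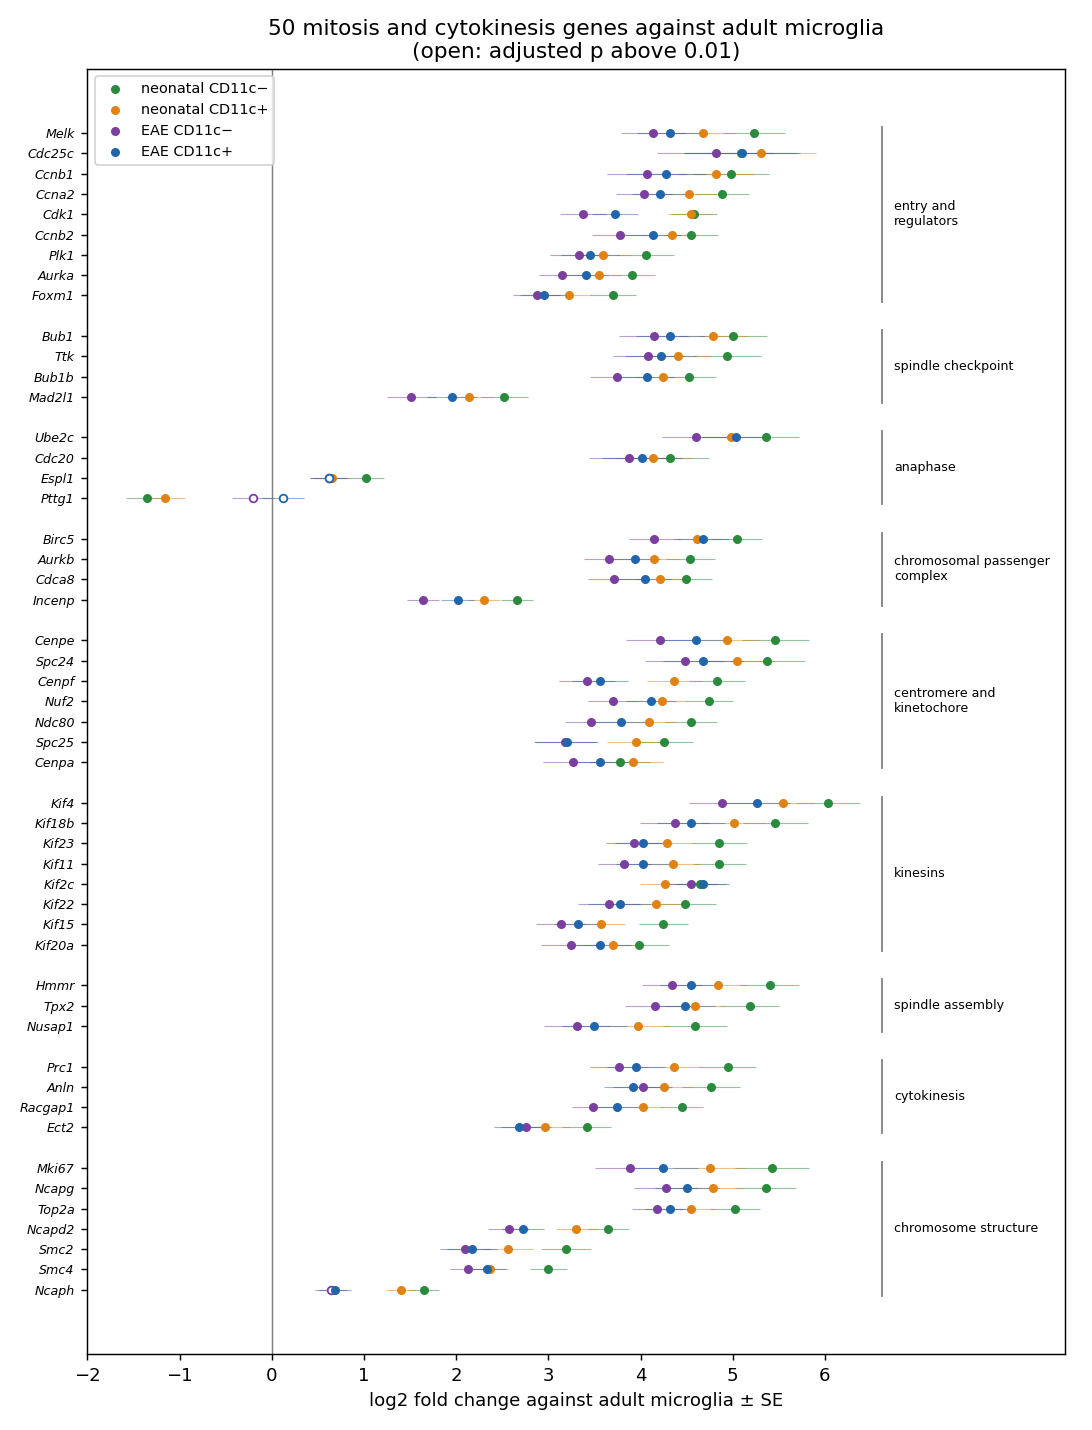
Log2 fold change against adult microglia (horizontal axis) with its standard error for each of the 50 members, ordered by role, in neonates (CD11c- in green, CD11c+ in orange) and in EAE (CD11c- in purple, CD11c+ in blue). Open circles did not pass an adjusted p of 0.01. Most members lie between 3 and 6, while Pttg1 lies near or below 0 and Espl1 and Ncaph lie between 0.62 and 1.65.

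Compared per kilobase of exon, so that genes can be set against each other, Mki67 had the highest level of the 50 in each neonatal and EAE group, at 72.6, 45.3, 24.9 and 31.8 CPM per kilobase. In adult microglia the order was different. Pttg1 led there with 11.3 CPM per kilobase, before Espl1 (6.10), Ncaph (5.84) and Incenp (5.49), and Mki67 had 1.69. The lowest member per kilobase was Cdc25c in all 5 groups, from 0.0439 in adult to 1.75 in neonatal CD11c+ cells. Adult reads were few for several members: 5 reads in all for Cdc25c, 8 for Spc24 and 13 for Ccnb1 over the 3 adult libraries, so the size of their change is the least precise.

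The 9 genes of entry into mitosis and its regulation rose in all 4 comparisons with adult cells, with median log2 fold changes of 4.58, 4.53, 3.77 and 4.14. Cdk1 (ENSMUSG00000019942, chromosome 10) encodes the kinase that drives cells into mitosis. It had 3.07, 2.68 and 2.75 CPM in adult, 66.5, 61.3, 68.2 and 76.2 in neonatal CD11c- and 62.95, 59.5, 67.2 and 76.3 in neonatal CD11c+ libraries. In EAE it had 23.3, 34.4 and 30.6 CPM in CD11c- and 23.1, 40.4 and 48.6 in CD11c+ libraries. The lowest neonatal library lay above the highest EAE library, and both neonatal subsets covered the same range. The log2 fold changes over adult were 4.58, 4.54, 3.37 and 3.72 (SE 0.25). Ccna2, which encodes cyclin A2, a partner of that kinase, had 2.33, 2.79 and 2.49 CPM in adult cells. Its levels were 95.8, 64.8, 66.8 and 75.8 CPM in neonatal CD11c- and 57.4, 57.1, 64.6 and 57.2 in neonatal CD11c+ libraries, and 29.7, 57.9 and 37.9 in CD11c- and 32.7, 43.4 and 65.6 in CD11c+ libraries of EAE. EAE libraries 3 and 5 reached the neonatal CD11c+ range. Its exons share bases with the opposite-strand gene Exosc9, 12.49% of its exonic length, so part of its reads may belong to that gene if counting ignored strand. Foxm1 encodes a transcription factor that activates G2 and M genes. It rose from 7.37, 8.16 and 8.39 CPM in adult libraries to 111, 99, 93.8 and 111 in neonatal CD11c- and 61.8, 76.2, 84.3 and 75.7 in neonatal CD11c+ libraries. The EAE levels were 40.9, 73.96 and 60.7 CPM in CD11c- and 37.99, 63.9 and 82.7 in CD11c+ libraries. Its fold changes over adult, 3.70, 3.22, 2.88 and 2.95 (SE 0.25 to 0.26), were the smallest of this role in each comparison. Among the others, the mitotic cyclins Ccnb1 and Ccnb2, the phosphatase Cdc25c that activates the kinase, and the kinases Plk1, Aurka and Melk rose by 3.14 to 5.30.

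The 4 spindle checkpoint genes, whose products hold a cell in metaphase until every chromosome is attached, rose in all 4 comparisons. Bub1b encodes the checkpoint protein BubR1. It had 4.67, 2.90 and 3.41 CPM in adult, 96.2, 77.7, 74.2 and 89.7 in neonatal CD11c- and 61.6, 64.95, 79.2 and 71.2 in neonatal CD11c+ libraries, against 33.5, 63.02 and 50.04 in EAE CD11c- and 38.5, 60.5 and 83.9 in EAE CD11c+ libraries. Bub1, a checkpoint kinase, had 0.86, 1.72 and 2.62 CPM in adult and 55.1, 43, 55.2 and 69.9 in neonatal CD11c- libraries. Its levels were 41.5, 47.8, 56.2 and 45.5 CPM in neonatal CD11c+, 21.2, 37.8 and 32.7 in EAE CD11c- and 19.1, 36.98 and 47.5 in EAE CD11c+ libraries. Neither gene had an adult library within reach of another group, and the top EAE CD11c+ library overlapped the neonatal range for both. Log2 fold changes over adult were 4.53, 4.24, 3.74 and 4.07 (SE 0.29 to 0.30) for Bub1b and 5.01, 4.78, 4.14 and 4.32 (SE 0.37 to 0.38) for Bub1. Mad2l1, the checkpoint gene that binds Cdc20, had the smallest rise of this role, 2.52, 2.14, 1.51 and 1.955 (SE 0.26 to 0.27), from an adult mean of 5.71 ± 0.477 CPM (SD, n = 3). The kinase Ttk rose by 4.08 to 4.94.

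The 4 genes of anaphase, when sister chromatids part, did not move as a group. Cdc20 activates the anaphase-promoting complex. It had 2.09, 1.07 and 1.83 CPM in adult, 19.2, 39.8, 35.5 and 37.6 in neonatal CD11c- and 28.6, 26.8, 32 and 29.6 in neonatal CD11c+ libraries. EAE CD11c- libraries had 18.1, 31.6 and 23.2 CPM and EAE CD11c+ libraries 11.03, 30.8 and 37.7. Library 17, the highest of its group for most members, was the lowest here, and library 1 was also the lowest of its group. Its log2 fold changes over adult were 4.32, 4.14, 3.88 and 4.01 (SE 0.42 to 0.43). Ube2c, the ubiquitin-conjugating enzyme of the same complex, rose by 5.36, 4.98, 4.599 and 5.03 (SE 0.35 to 0.37), with 22.77% of its exonic length shared with the opposite-strand gene Tnnc2.

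Pttg1 (ENSMUSG00000020415, chromosome 11) encodes securin, which blocks separase until anaphase. It had 26.3, 22.9 and 18.6 CPM in adult libraries 21 to 23. Neonatal CD11c- libraries had 12.4, 5.88, 6.96 and 10.8 CPM and neonatal CD11c+ libraries 10.1, 10.3, 7.18 and 13.1. EAE CD11c- libraries had 21.8, 17.3 and 19.9 CPM and EAE CD11c+ libraries 28.2, 24.2 and 21.6. Every neonatal library lay below every adult and EAE library, and the EAE libraries overlapped with the adult range. Pttg1 fell in neonatal CD11c- cells by a log2 fold change of -1.35 (SE 0.23) and in neonatal CD11c+ cells by one of -1.16 (SE 0.22), with adjusted p = 0.00015 and 0.00034 in edgeR's test. In EAE the log2 fold changes were -0.20 and 0.12, with 95% intervals of -0.65 to 0.25 and -0.33 to 0.57 and adjusted p = 0.59 and 0.71 in the same edgeR test. It was the only one of the 50 members that was lower in neonates than in adults.

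Espl1 encodes separase, the protease that securin holds back and that cuts cohesin. It had 52.6, 55.7 and 51.9 CPM in adult, 82.3, 114, 112 and 126 in neonatal CD11c- and 74.8, 86.6, 90.97 and 83.5 in neonatal CD11c+ libraries. It had 74.03, 92.1 and 79.2 CPM in EAE CD11c- and 50.2, 87.2 and 108 in EAE CD11c+ libraries. Only EAE library 1 fell within reach of the adult libraries, just below them. Espl1 rose in neonatal CD11c- cells by 1.02 (SE 0.19) and in neonatal CD11c+ cells by 0.65 (SE 0.19), the latter with an adjusted p of 0.00985 in edgeR's test, which passed 0.01 in 4 of the 17 fits that each left out 1 library. In EAE its differences of 0.62 and 0.62 did not pass (adjusted p = 0.033 and 0.022 in edgeR's test), and without library 1 both passed, with 0.62 and 0.87.

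**Figure D3:**
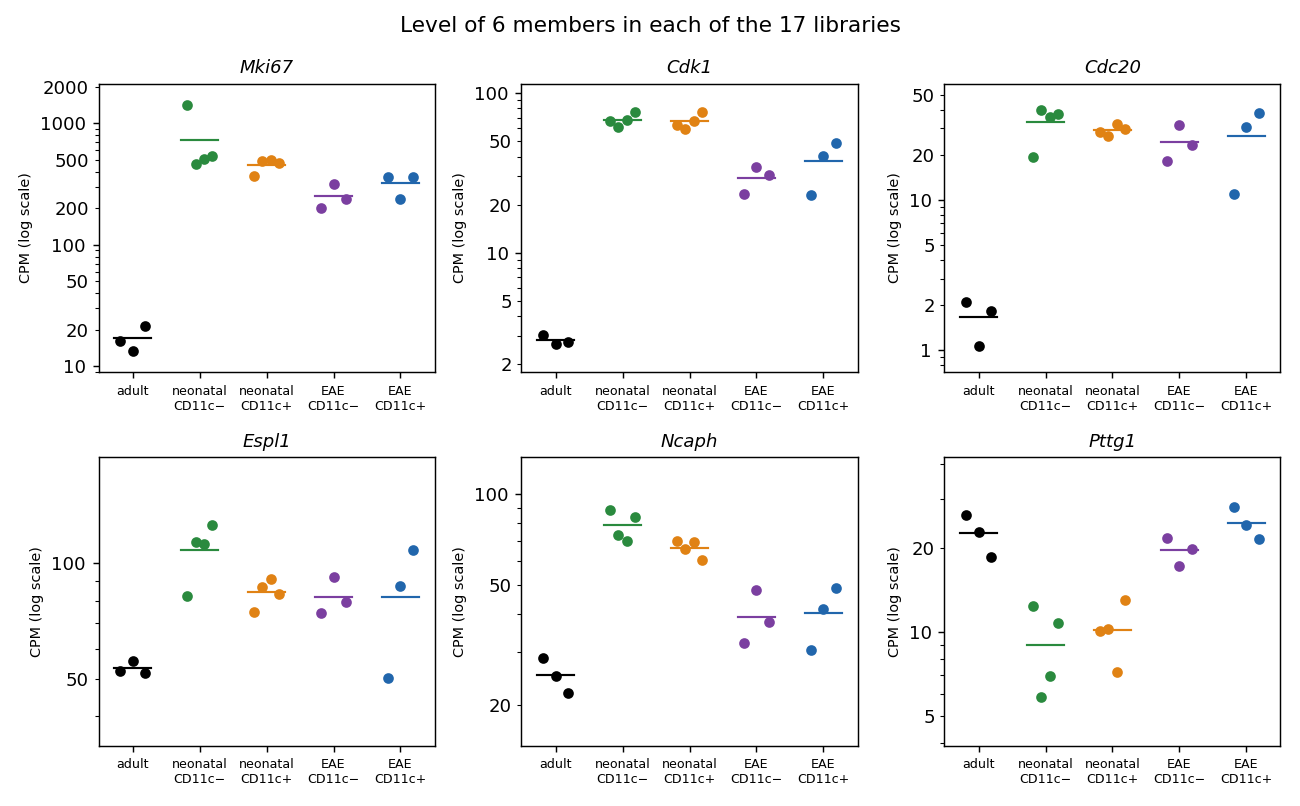
CPM in each library (points, log scale on the vertical axis) and group mean (line) for Mki67, Cdk1, Cdc20, Espl1, Ncaph and Pttg1 in the 5 groups. Mki67, Cdk1 and Cdc20 are far above the adult level in every other library, Espl1 and Ncaph start from a high adult level, and Pttg1 is lowest in the neonatal libraries.

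The 4 genes of the chromosomal passenger complex, which corrects faulty attachments and later guides cytokinesis, rose in all 4 comparisons. Aurkb is its kinase. It had 2.58, 2.04 and 1.97 CPM in adult, 47.8, 52.6, 50.5 and 54.5 in neonatal CD11c- and 36.8, 36.8, 43.97 and 39.2 in neonatal CD11c+ libraries, and 20.6, 36.6 and 26.3 in CD11c- and 21.4, 38.2 and 41.6 in CD11c+ libraries of EAE. The 2 neonatal subsets did not overlap, the CD11c- libraries being higher, but the difference of -0.39 (SE 0.18) did not pass. Incenp, the scaffold of the complex, stood out by its adult level of 22.6, 24.4 and 24.4 CPM. It rose to 196, 141, 125 and 139.7 CPM in neonatal CD11c- and 102, 114, 122 and 132 in neonatal CD11c+ libraries, and to 65.3, 86.9 and 70.1 in CD11c- and 77.7, 94.9 and 116 in CD11c+ libraries of EAE. The rise over adult cells on the log2 scale was 4.54, 4.15, 3.66 and 3.94 (SE 0.26 to 0.27) for Aurkb and 2.66, 2.30, 1.64 and 2.02 (SE 0.17 to 0.18) for Incenp. Birc5 (survivin) and Cdca8 (borealin) rose by 3.72 to 5.05.

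All 7 centromere and kinetochore genes rose in every comparison with adult cells. Cenpe encodes a kinesin that carries chromosomes to the spindle equator. It had 2.21, 2.90 and 3.02 CPM in adult, 204, 95.3, 86.3 and 96.7 in neonatal CD11c- and 73.5, 83.6, 89.1 and 87.9 in neonatal CD11c+ libraries, and 41.03, 66.1 and 43.8 in CD11c- and 70.9, 45.4 and 82.5 in CD11c+ libraries of EAE. Library 17 held more than any other library. Cenpf, a large kinetochore protein of G2 and M, had 2.82, 4.08 and 4.46 CPM in adult and 167, 88.3, 83.1 and 94.5 in neonatal CD11c- libraries. It had 75.9, 80.02, 81.6 and 75.7 CPM in neonatal CD11c+ libraries and 33.4, 51.1 and 37.4 in CD11c- and 48.7, 31.2 and 54.7 in CD11c+ libraries of EAE. All neonatal libraries lay above all EAE libraries for Cenpf. Log2 fold changes over adult were 5.46, 4.94, 4.21 and 4.602 (SE 0.36 to 0.37) for Cenpe and 4.83, 4.37, 3.42 and 3.56 (SE 0.30) for Cenpf. The NDC80 complex, which grips the microtubule ends, is made of Ndc80, Nuf2, Spc24 and Spc25, and these rose by 3.18 to 5.37. Cenpa, the histone variant that marks centromeres, rose by 3.78, 3.92, 3.27 and 3.56 (SE 0.32 to 0.33).

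The 8 kinesins, motor proteins of the spindle and midzone, rose in every comparison with adult cells, and Kif4, a motor of the chromosome arms, had the largest log2 fold change of the 50 members in each, 6.03, 5.54, 4.89 and 5.26 (SE 0.34 to 0.36). Kif11 pushes the spindle poles apart. It had 3.81, 3.22 and 4.33 CPM in adult, 142, 86.9, 96.3 and 111 in neonatal CD11c- and 71.3, 79.7, 84.3 and 74.1 in neonatal CD11c+ libraries, and 34.95, 73.4 and 51.9 in CD11c- and 46.9, 57.3 and 79.8 in CD11c+ libraries of EAE. Kif15, which shares that work, had 4.67, 3.86 and 4.85 CPM in adult and 116, 68.5, 68.3 and 86.4 in neonatal CD11c- libraries. It had 44.7, 54.5, 58.96 and 53.7 CPM in neonatal CD11c+ libraries, all below the CD11c- ones, and 31.3, 49.98 and 35.7 in CD11c- and 41.3, 33.9 and 58.9 in CD11c+ libraries of EAE. Kif2c, a motor that shortens microtubules at the centromere, had 1.60, 2.04 and 1.57 CPM in adult, 46.9, 45.6, 37.7 and 47.3 in neonatal CD11c- and 29.6, 30.6, 39.7 and 35.99 in neonatal CD11c+ libraries. Its EAE levels were 36.6, 47.7 and 39.7 CPM in CD11c- and 26.6, 49.8 and 58.05 in CD11c+ libraries, so that each EAE group overlapped both neonatal groups. Log2 fold changes over adult were 4.85, 4.36, 3.82 and 4.02 (SE 0.28 to 0.29) for Kif11, 4.25, 3.57, 3.13 and 3.33 (SE 0.26 to 0.27) for Kif15 and 4.65, 4.26, 4.55 and 4.67 (SE 0.27 to 0.28) for Kif2c. Kif18b, Kif22, Kif23 and Kif20a rose by 3.25 to 5.46, with 29.3% of the exonic length of Kif20a shared with the opposite-strand gene Cdc23.

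The 3 spindle assembly genes rose in all 4 comparisons. Tpx2 activates Aurora A and nucleates microtubules near chromosomes. It had 2.58, 2.15 and 2.88 CPM in adult, 139, 72.5, 70.7 and 87.1 in neonatal CD11c- and 55.3, 62.1, 69.5 and 57.5 in neonatal CD11c+ libraries, and 31.8, 58.99 and 44.6 in CD11c- and 42.5, 54.6 and 72.5 in CD11c+ libraries of EAE. Hmmr, a microtubule-binding protein of the spindle poles, had 1.60, 1.61 and 1.70 CPM in adult and 97.9, 55.2, 58.1 and 68.6 in neonatal CD11c- libraries. It had 44.4, 50.6, 55.3 and 39.2 CPM in neonatal CD11c+ and 23.8, 45.5 and 30.5 in CD11c- and 31.2, 35.4 and 48.6 in CD11c+ libraries of EAE. Library 17 was far above the rest of its group for both. Relative to adult cells the log2 fold changes were 5.18, 4.59, 4.16 and 4.48 (SE 0.32 to 0.33) for Tpx2 and 5.40, 4.84, 4.34 and 4.54 (SE 0.32 to 0.33) for Hmmr, and Nusap1, which bundles spindle microtubules, rose by 4.59, 3.97, 3.31 and 3.50 (SE 0.34 to 0.35).

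The 4 cytokinesis genes rose in all 4 comparisons. Racgap1, part of the centralspindlin complex that marks the cleavage plane, had 3.56, 6.33 and 5.11 CPM in adult, 125, 104, 98.1 and 114 in neonatal CD11c- and 77.7, 80.8, 89.8 and 79.8 in neonatal CD11c+ libraries. It had 43.4, 68.1 and 57.9 CPM in EAE CD11c- and 50.4, 64.6 and 88.3 in EAE CD11c+ libraries. Prc1, which bundles the midzone microtubules, had 3.19, 2.36 and 3.80 CPM in adult and 150.1, 74.1, 68.5 and 90.2 in neonatal CD11c- libraries. It had 57.3, 61.6, 72.5 and 63.2 CPM in neonatal CD11c+ and 32.7, 54.1 and 39.2 in CD11c- and 40.6, 46.8 and 55.96 in CD11c+ libraries of EAE. All Prc1 levels in neonates lay above those in EAE, while for Racgap1 EAE library 3 reached the neonatal CD11c+ range. In log2 units the rise over adult cells was 4.45, 4.02, 3.48 and 3.75 (SE 0.23) for Racgap1 and 4.94, 4.36, 3.76 and 3.95 (SE 0.31) for Prc1. Ect2, the exchange factor that switches on RhoA at the furrow, and anillin (Anln), a scaffold of the contractile ring, rose by 2.68 to 4.76.

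The 7 genes of chromosome structure rose in neonatal cells of both kinds and in EAE CD11c+ cells, and 6 of them in EAE CD11c- cells. Mki67 encodes Ki-67, which coats mitotic chromosomes and is the usual marker of cycling cells. It had 16.2, 13.4 and 21.4 CPM in adult, 1415, 460.2, 510.5 and 536 in neonatal CD11c- and 365, 488, 502 and 469 in neonatal CD11c+ libraries, and 199.5, 314 and 237 in CD11c- and 362, 239 and 359.9 in CD11c+ libraries of EAE. Top2a, the topoisomerase that untangles chromosomes, had 8.72, 9.77 and 11.7 CPM in adult, 380.3, 306, 290.3 and 330.2 in neonatal CD11c- and 217, 229, 264 and 232 in neonatal CD11c+ libraries. Its levels in EAE were 127, 244 and 176 CPM in CD11c- and 129.9, 196 and 276 in CD11c+ libraries, so that EAE libraries 3 and 5 reached the neonatal CD11c+ range. Against adult cells the log2 fold changes were 5.43, 4.75, 3.88 and 4.24 (SE 0.38 to 0.40) for Mki67 and 5.02, 4.55, 4.18 and 4.32 (SE 0.27 to 0.28) for Top2a.

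The other 5 genes of this role encode condensin subunits, which compact chromosomes, and they did not rise alike. Ncapg, a subunit of condensin I, rose by 5.36, 4.78, 4.27 and 4.50 (SE 0.33 to 0.34) from an adult mean of 1.29 ± 0.497 CPM (SD, n = 3). Ncapd2, of the same complex, and Smc2 and Smc4, the core of both condensins, rose by 2.10 to 3.65 from adult means of 16.6 to 20.6 CPM. Ncaph, the subunit that closes the condensin I ring, had 28.6, 24.9 and 21.9 CPM in adult, 88.4, 73.2, 69.8 and 83.95 in neonatal CD11c- and 69.96, 65.6, 69.3 and 60.4 in neonatal CD11c+ libraries. It had 32.02, 48.1 and 37.5 CPM in EAE CD11c- and 30.5, 41.6 and 48.7 in EAE CD11c+ libraries, each EAE library above each adult one. Ncaph rose in both neonatal groups by 1.65 and 1.40 (SE 0.17 each) and in EAE CD11c+ cells (0.68, SE 0.17, adjusted p = 0.0047 in edgeR's test), while in EAE CD11c- cells 0.64 (SE 0.17) did not pass, with an adjusted p just above 0.01 in the same edgeR test. The EAE CD11c+ call was lost without adult library 22 or 23 or EAE library 2 or 3, and the EAE CD11c- difference passed without library 17, 4, 1 or 3.

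Between CD11c+ and CD11c- cells of the same age or disease, no member passed the test. In neonates 47 of 50 members were lower in CD11c+ cells, with a median log2 fold change of -0.43 against -0.02 over all genes. For 24 members every CD11c+ library lay below every CD11c- library. How many of all genes separate in this way was not counted, so the 24 describe the members alone. Called members were 0 higher and 0 lower, against 5.44% and 2.31% of all genes, and 30 members had an unadjusted p under 0.05. Counts at an unadjusted p, here and below, are given without the share of all genes and describe the members alone. Smc4 came nearest, with 165 ± 41.7 CPM in CD11c- and 106 ± 5.54 in CD11c+ cells (SD, n = 4 each), a difference of -0.64 (SE 0.16) and an adjusted p of 0.012 in edgeR's test. Kif15 followed with -0.67 (SE 0.19) and an adjusted p of 0.023 in edgeR's test. Cdk1 differed by -0.03 (SE 0.17), with a 95% interval of -0.36 to 0.29. Without library 17 the median was -0.32 and 7 members had an unadjusted p under 0.05, and there were 13 such members without library 13 and 18 without library 14. DESeq2's Wald test called Smc4 lower and 0 members higher. Without libraries 1, 16 and 17 the median was -0.30, and Espl1 alone passed, with -0.48 and an adjusted p of 0.0024 in edgeR's test.

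In EAE the sign was the other way: 48 of 50 members were higher in CD11c+ than in CD11c- cells, with a median of 0.20 against 0.01 over all genes. Again 0 rose and 0 fell, against 1.66% and 2.71% of all genes, 2 members had an unadjusted p under 0.05, and DESeq2's Wald test called 0. Birc5 had the largest difference, 0.53 (SE 0.20), from 22.9 ± 4.62 to 33.2 ± 6.34 CPM (SD, n = 3 each), and its adjusted p was 0.13 in edgeR's test. No member had its EAE subsets apart without overlap. This sign rested on single libraries. Without library 3 the median was 0.00 and 26 members were negative, and without library 4 it was 0.04 with 19 negative, while it was 0.45 without library 5 and 0.38 without library 1. Leaving out libraries 1, 16 and 17 together, Cdk1 and Incenp rose in EAE CD11c+ cells, by 0.59 and 0.50.

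The difference between both subset effects was tested as an interaction. All 50 members had a more negative CD11c effect in neonates than in EAE, with a median of -0.62 against 0.00 over all genes, yet 0 passed in either direction (1.43% of all genes higher and 0.107% lower). At an unadjusted p under 0.05 there were 24, and DESeq2's Wald test called 0. The lowest adjusted p, 0.046 in edgeR's test, was that of Birc5 with -0.96 (SE 0.26). Without libraries 1, 16 and 17, Espl1 and Incenp passed with -0.73 and -0.77. The median was -0.50 without library 17, -0.47 without library 4, -0.42 without library 3 and -0.89 without library 5. Members with an unadjusted p under 0.05 numbered 13, 8, 6 and 39 in these fits, 12 without library 6 and 39 without library 1, and without library 3 the sign was negative for 46 of 50.

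**Figure D4:**
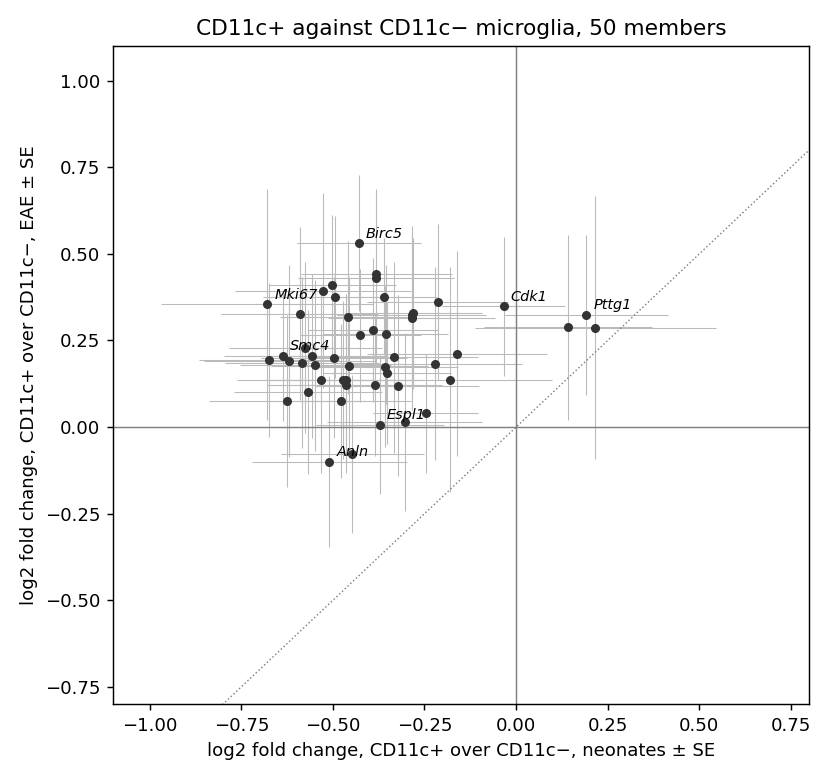
Log2 fold change of CD11c+ over CD11c- cells in neonates (horizontal axis) and in EAE (vertical axis) for the 50 members, with standard errors, and a dotted line of equal change. The points lie left of 0 for 47 members and above 0 for 48, all of them above the dotted line, and none passed the test in either condition.

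Most members were higher in neonatal than in EAE cells. For the mean of both neonatal groups against the mean of both EAE groups, 34 of 50 members were higher and 1 lower, where 16.9% of all genes were higher and 17.4% lower, and the median difference was 0.59. Cenpf, Mki67 and Cdk1 had the largest differences, 1.11 (SE 0.17), 1.03 (SE 0.23) and 1.01 (SE 0.13). These 3 were the only members that rose with a log2 fold change of 1 or more. The lowest were Pttg1 (-1.22, SE 0.16), Kif2c (-0.16, SE 0.14) and Espl1 (0.22, SE 0.13), of which Pttg1 alone passed. By role, all 7 chromosome structure genes and all 3 spindle assembly genes were higher in neonates, 6 of 7 centromere and kinetochore genes, 6 of 9 entry genes, 6 of 8 kinesins, 2 of 4 in each of the spindle checkpoint, chromosomal passenger and cytokinesis roles, and none of the 4 anaphase genes. The number higher was 21 without EAE library 4, 21 without EAE library 6 and 25 without libraries 1, 16 and 17.

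By calls, more members differed between the CD11c- groups than between the CD11c+ groups, although the test of that difference, which is the interaction above, passed for 0 members. Neonatal CD11c- against EAE CD11c- cells gave 33 members higher and 1 lower (10.1% and 13.4% of all genes), with a median of 0.90. For 40 members every neonatal library lay above every EAE library, a count that was not made over all genes. The number higher was 18 without EAE library 4, 19 in a fit of these 2 groups alone and 41 without libraries 1, 16 and 17. Neonatal CD11c+ against EAE CD11c+ cells gave 2 higher and 1 lower (12% and 12.6%), with a median of 0.28. Cdk1 (0.82, SE 0.19) and Ncaph (0.72, SE 0.16) were higher and Pttg1 (-1.28, SE 0.22) was lower. Cenpf came next with 0.81 (SE 0.23) and an adjusted p of 0.011 in edgeR's test. Without library 1, Ncaph did not pass, Kif2c was lower and the median was 0.12, and without library 3 there were 5 members higher with a median of 0.51. Without libraries 1, 16 and 17, 3 were higher and 2 lower, with a median of 0.11.

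In the EAE groups, and less so in neonates, most members had their highest level in the same library. EAE library 5 had the highest level of its group for 49 of 50 members and library 4 the lowest for 48, and EAE library 3 was highest for 47 and library 1 lowest for 42. In neonates, library 15 was highest for 35 members and library 17 for 36. The adult libraries had no such order, being highest for 16, 16 and 18 members. Library 17 was uneven: members such as Mki67 and Cenpe were 1.49 and 1.14 log2 units above the mean of libraries 18 to 20, and Cdc20, Cenpa and Espl1 were -0.97, -0.79 and -0.51 from it. Base content was compared with these departures. The 25 members with the lower GC content had a median of 0.64 and the 25 with the higher GC content one of 0.24, and Spearman's rho with GC was -0.51 over the 50 members and -0.50 over 8810 genes with a mean of at least 10 CPM. For library 1 against libraries 2 and 3 the medians were -0.47 and -0.82, with a rho of -0.47 and -0.41. Correlations with GC of this size over the members were also found for the departures of other libraries, such as library 14 (-0.50), library 18 (0.52) and library 2 (0.45), and transcript length had a rho of 0.40 in library 17 and 0.61 in library 14. These are correlations across genes of 1 library, which are not independent replicates, and the part of GC content or length in the levels of these libraries was not tested.

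**Figure D5:**
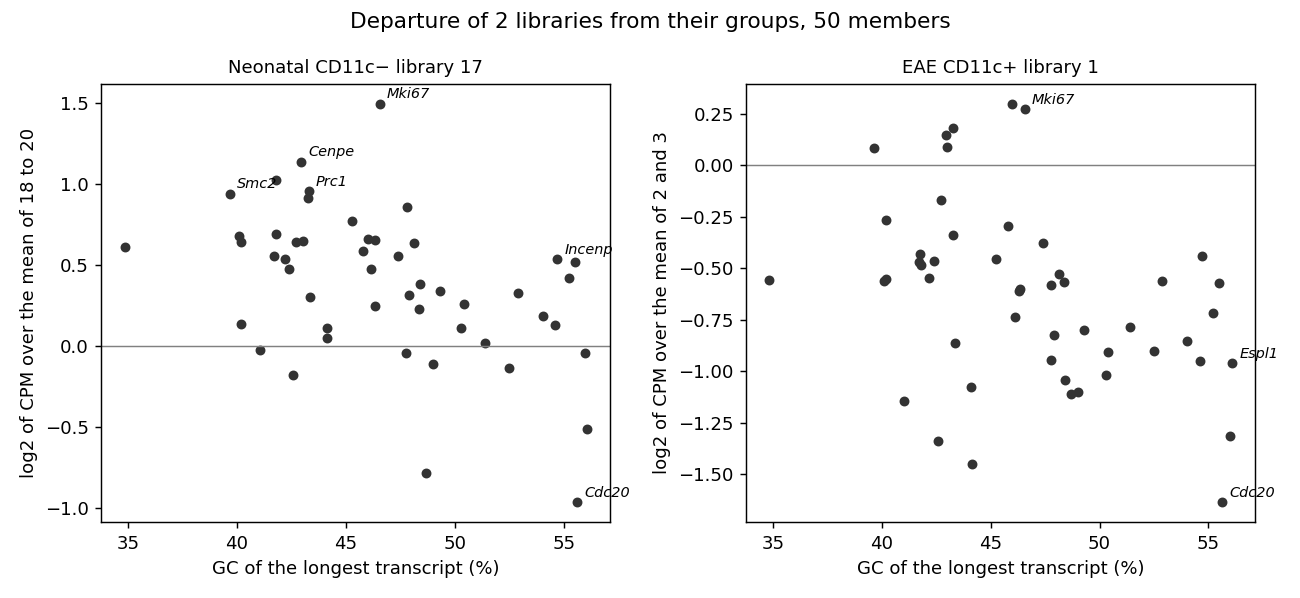
Log2 ratio of the CPM of each member in library 17 to the mean of libraries 18 to 20 (left) and in library 1 to the mean of libraries 2 and 3 (right), against the GC content in percent of its longest transcript. Members with lower GC content tended to lie higher in both panels, with wide scatter. On the left, Cdc20 lies at the bottom and Mki67 at the top. The GC content of Mki67, 46.56%, is just above the member median of 46.34%.

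Markers of other cells moved with some of these comparisons. The 9 neutrophil markers summed to 916.9 to 1869 CPM in adult, 293.1 to 1654 in neonatal CD11c-, 18.16 to 24.73 in neonatal CD11c+, 6832 to 13190 in EAE CD11c- and 42.37 to 78.1 in EAE CD11c+ libraries. The 5 markers of neutrophil precursors, which divide, had 2.947 to 10.23, 48.21 to 249.4, 0.126 to 2.074, 22.83 to 38.75 and 0.1254 to 0.5253 CPM in the same order, with Ctsg and Ms4a3 at 0 in EAE CD11c+ libraries. Every CD11c+ library, neonatal or EAE, had less of both marker lists than any adult library. Library 19 had the most precursor markers (249.4 CPM), and library 18 of the same group had 53.21 CPM of them. The 5 monocyte markers summed to 71.96 to 146.3, 14.1 to 98.89, 2.646 to 4.883, 492.5 to 794.9 and 28.71 to 98.7 CPM. The summed level of 8 border macrophage markers was higher in the neonatal groups, from 56.74 to 132.3 CPM in adult to 922.3 to 1340 in neonatal CD11c- and 1510 to 3527 in neonatal CD11c+ libraries, and was 111.3 to 138.3 and 146.9 to 177.6 in EAE. Mrc1 alone gave 853.6 to 1229 CPM of the sum in neonatal CD11c- libraries, where Siglec1 (14.27 to 19.48 CPM) lay below every EAE library. The 8 neural progenitor and neuron markers had 0.2456 to 1.181 CPM in adult, 4.077 to 8 in neonatal CD11c-, 10.03 to 30.68 in neonatal CD11c+ and at most 0.7004 in EAE libraries, where Sox11, Dcx and Neurod1 had no read. T and NK cell markers summed to at most 4.872 CPM in any library. The B cell marker Pax5 had no read in either neonatal group, although the 5 markers of the list summed to 51.83 to 72.82 CPM there. The 10 astrocyte and oligodendrocyte lineage markers summed to 180.5 to 191.8 CPM in adult, 58.56 to 138.7 in neonatal and 198.9 to 259.7 in EAE libraries. The 7 endothelial and erythroid markers summed to 51 to 65.58, 55.1 to 107.1 and 16.42 to 32.13 CPM. What part any of these cells had in the levels of mitotic genes was not tested.

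The wider set of mitosis genes followed the members with smaller changes. Of 101 further genes of the kinetochore, spindle, cohesin and anaphase-promoting complex, 81, 76, 64 and 67 rose against adult cells in the order of groups used above (neonatal before EAE and CD11c- before CD11c+), and 0 fell. Their median log2 fold changes were 2.72, 2.18, 1.94 and 2.05. The smallest adjusted p in neonatal CD11c- cells belonged to Cit, which encodes citron kinase of the midbody (4.24, SE 0.23), Kntc1 (4.50, SE 0.26) and Knl1 (4.93, SE 0.29) of the kinetochore, and Ckap2, a spindle protein (5.14, SE 0.30). Genes of the anaphase-promoting complex and of cohesin and its loading, which resting cells use as well, were among those that did not pass, such as Anapc4, Cdc16, Stag2 and Nipbl. No gene of this set rose or fell between the EAE subsets, and Cenpc1 (-0.62) and Arhgap11a (-0.46) fell in neonatal CD11c+ against CD11c- cells.

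The DNA replication genes, which act earlier in the cycle, rose too but by less. Of 36 genes 33, 33, 30 and 32 rose against adult cells, with medians of 2.65, 2.27, 1.81 and 2.04. Prim1, a primase subunit, and Ccne2, cyclin E2, fell in neonatal CD11c+ against CD11c- cells (-0.70 and -0.83). The summed level of these genes was 371 ± 14.9 CPM in adult cells (SD, n = 3) and 4.969, 4.214, 2.831 and 3.161 times that in the other groups, less than the folds of the mitotic sum in each. Pcna, the polymerase clamp, did not pass in any of the 4 comparisons, at 0.41, 0.44, -0.10 and -0.09. Library 17, the highest of all for the mitotic sum, had 1803 CPM of replication genes, within the 1775 to 1953 CPM of libraries 18 to 20.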

How the data were processed

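RNA of 17 pools of sorted microglia was sequenced by the study as single reads of 50 bases. The deposited files hold raw counts of reads per Ensembl gene, which the authors made with STAR 2.3.11 and HTSeq 0.5.4 on GRCm38 and analysed with edgeR 3.12.0, according to the submitters' processing notes. Strand setting and annotation release are not given in the sources used here. Without strand, reads of a gene and of an overlapping opposite-strand gene cannot be told apart. Of the 50 members, 13 share exonic bases with another counted gene, 7 of them over 10%.

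Of 41388 IDs, 40254 were named by GENCODE M21 and 17737 had no count. Groups came from the labels. Genes with at least 1 CPM in at least 3 libraries were tested in 1 model of 5 groups with edgeR 4.0.16 (TMM, quasi-likelihood F test, R 4.3.3), and Benjamini-Hochberg adjusted p-values were called at 0.01. The standard error is the log2 fold change divided by the square root of F. DESeq2 1.42.0 served as an alternative, beside other scaling and filters, fits of only the groups compared, stricter and looser thresholds, and leaving out libraries. On counts simulated for neonatal CD11c- against adult cells over 13060 genes, 61 of 100 genes changed 2-fold, 91 of 100 changed 4-fold and 1 of 12860 unchanged genes were called. Replicate libraries differed by more than sampling noise (chi-square per degree of freedom 3.092 to 49.58). Intervals of log2 fold changes rest on the standard error defined above, so both they and the p-values measure the spread between pools.

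The members and lists were chosen with earlier results of these data known. Values in every library are given for the 2 members of each role with the highest mean CPM, each member not called in at least 1 comparison with adult cells, each member called between CD11c subsets or in the interaction, and the 3 largest and 3 smallest differences between neonatal and EAE groups. Of the further mitosis genes, up to 4 with the smallest adjusted p were named. Birc5, Smc4, Pcna, the genes that did not pass and those lost or gained under an alternative were named after their values were seen. Some single markers of other cell types are not reported here.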

Additional observations from a re-analysis of the deposited data

Results flagged for a closer look

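In 10 of 102 sets of 4 libraries (each of the 50 members and their sum, in both neonatal groups), 1 library lay farther from the others than Dixon's 95% limit allows. Chance flags about 1 in 20 such groups. The sets come from the same libraries and are not independent, so the number flagged cannot be read against that rate.

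Library 17 accounted for 6 of the 10, each time as the highest of the neonatal CD11c- group. Mki67 had 1415 CPM there against 460.2 to 536.1 in libraries 18 to 20, Smc2, a condensin core subunit, 237.4 against 119.4 to 129.4, and Cenpe 203.9 against 86.26 to 96.74. Cenpf had 166.9 CPM against 83.13 to 94.51, cyclin B2 (Ccnb2) 51.45 against 40.37 to 41.27, and Spc24 of the NDC80 complex 16.39 against 12.98 to 13.16. This library also had the highest mitochondrial share, 5.103% of counted reads.

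In library 19 of the same group, Kif2c had 37.68 CPM against 45.63 to 47.26 in the others. Among neonatal CD11c+ libraries, library 15 was highest for Ccna2 with 64.63 CPM against 57.09 to 57.43 and for Nuf2 with 36.54 CPM against 29.78 to 30.89. Library 14 was lowest for Spc25, with 15.72 CPM against 18 to 18.27.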

How the results depend on the processing

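No paired analysis was possible because the library numbers are unique and link no libraries across groups. CD11c+ and CD11c- libraries may share a sort, which the unpaired tests could not use. Counts against adult cells stayed within 1.5 times under every alternative run, and no result changed direction past its threshold. Of 5060 values of the 22 members with full values, 4918 kept direction and side of the threshold, 93 lost and 49 gained the call. Between neonatal CD11c+ and CD11c- cells, the number of members lower was 0, but 1 in DESeq2's Wald test, 2 with no filter beyond 1 count, 1 without libraries 1, 16 and 17, 2 at an adjusted p of 0.05, and 0 to 1 when 1 library was left out. Between the EAE subsets, 2 were higher without libraries 1, 16 and 17. Of neonatal against EAE means, 3 were higher with a log2 fold change of at least 1, and 21 to 42 when 1 library was left out. For the CD11c- groups, 19 were higher when these groups were fitted alone and 18 to 41 when 1 library was left out. For the CD11c+ groups, 4 were higher in DESeq2's Wald test, 0 with a log2 fold change of at least 1, 5 at an adjusted p of 0.05, and 1 to 5 when 1 library was left out, while 2 were lower without libraries 1, 16 and 17 and 1 to 2 when 1 library was left out. In the interaction, 2 were lower without libraries 1, 16 and 17 and 1 at an adjusted p of 0.05. The cause of these shifts was not tested. Depth limits the folds of Cdc25c, Spc24 and Ccnb1, which had 5, 8 and 13 adult reads in all.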
